A study of Drosophila suzukii with 24 samples.

Results

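Among the 13584 gene models of Drosophila suzukii, 194 were strong in untreated laboratory flies and more than 4 times weaker in untreated field flies. They were chosen by 3 limits on deposited group values: 20 FPKM or more in untreated lab flies, 1 FPKM or more in untreated field flies, and a lab value over 4 times the field value. FPKM is a level of fragments per transcript length, scaled to the library's mapped fragments. Both minimums were met by 5279 genes, and the 5085 of them that missed the fold limit serve below as comparison genes. The untreated values thus chose the members and describe them without a test.

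Drosophila suzukii, the spotted wing drosophila, cuts into ripening soft fruit to lay its eggs and is held back mainly by spraying. Spinosad acts on nicotinic acetylcholine receptors, malathion blocks acetylcholinesterase, and the pyrethroid zeta-cypermethrin holds open the sodium channels of nerve membranes. Insects commonly meet such compounds with enzymes that break them down and with changes in cuticle, targets and metabolism. The gene models carry DS10_ identifiers that the files do not pair with names, and 0 of them matched the 18239 genes of the reference table. Members are therefore given by identifier and position, with no function, and marker and pathway lists could not be applied.

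Whole adults of wild type genotype, 5 to 7 days old, were sequenced as polyadenylated RNA in 24 samples of 10 flies, 3 samples in each of 8 groups. The groups were field-collected flies (Field) and laboratory-reared flies (Lab), each untreated or alive after spinosad, malathion or zeta-cypermethrin at the concentration lethal to 50%. The labels give no sex, dose, collection site or batch, and do not say whether replicates were separate exposures, so the authors' p-values may measure technical spread. Each group has 1 deposited value, pooled by the authors over its replicates, so the levels carry no replicate error and depth per library is unknown. A pool of whole flies mixes all tissues, and fewer cells of a type and less RNA per cell cannot be told apart.

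The untreated groups differed in 1 direction at this limit. The ratio of untreated lab to untreated field flies ran from 4.02 to 77.9 among the members, with a median of 4.97. It was under 6 in 131 members, over 10 in 16 and over 20 in 4. With the populations exchanged, 0 of 5263 genes met the same limits, the largest field excess being 3.89-fold. Just inside the limit were DS10_00012948 (ratio 4.02) and DS10_00001133 (4.02), and just outside it DS10_00004002 (3.99) and DS10_00008685 (3.98). A further 3 genes reached 20 FPKM in untreated lab flies but stayed under 1 FPKM in untreated field flies.

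The scale of the untreated field column differed from the other columns. Among 5992 genes whose untreated levels both reached 10 FPKM, field values were 1.28-fold the lab values at the median (0.35 on the log2 scale). Against that shift the members lay further from the other genes than their ratios say. After this shift was taken out, 349 genes met the rule. The same shift was 0.17 for field malathion survivors and between −0.05 and 0.05 for the other survivor groups.

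**Figure D1:**
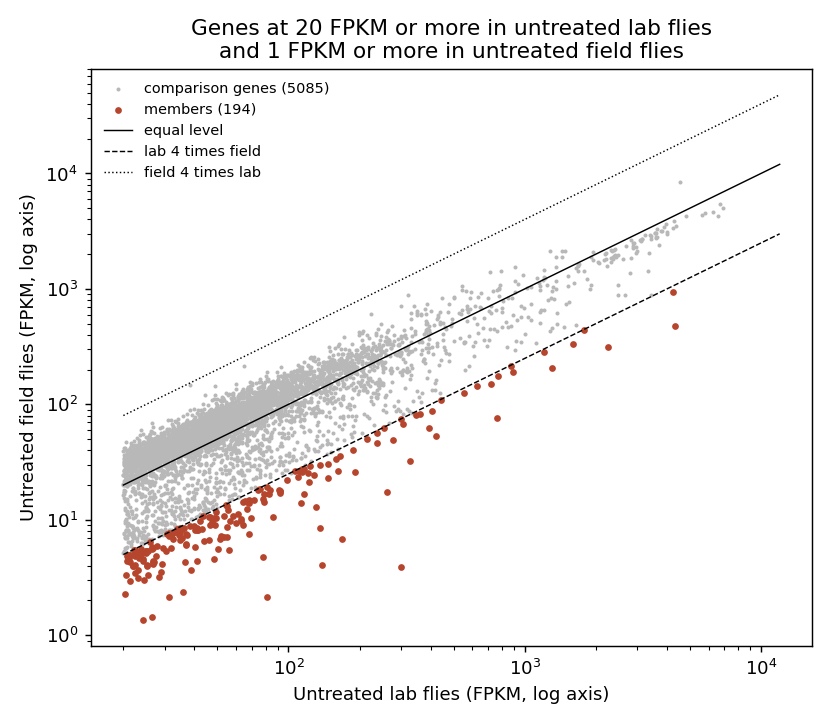
FPKM in untreated lab flies (horizontal, log axis) against untreated field flies (vertical, log axis) for the 5279 genes that met both minimums, with 1 point per gene. The 194 members lie under the dashed line of a 4-fold lab excess by construction, and no point lies above the dotted line of a 4-fold field excess.

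Members spanned a wide range of strength. In untreated lab flies they ran from 20.3 to 4336 FPKM with a median of 50.03, and 54 of them stood at 100 FPKM or more. In untreated field flies they ran from 1.36 to 948 FPKM with a median of 8.51. Together they held 4.55% of the summed FPKM of untreated lab flies and 0.893% of that of untreated field flies. In field survivors the share was 6.37% after spinosad, 4.19% after malathion and 5.86% after zeta-cypermethrin. In lab survivors it was 3.62%, 4.28% and 5.45% in the same order. Untreated field flies thus held the smallest share of the 8 groups, which the choice of members sets, while the survivor shares were not part of the rule. The 10 members strongest in untreated lab flies carried 2.42 of the 4.55 percentage points there. Without them the shares were 2.13% in untreated lab, 0.414% in untreated field and 2.09% to 3.35% in field survivors. DS10_00010769, at 762 FPKM in untreated lab flies and 5667 FPKM in field spinosad survivors, was not among these 10 and stays in those shares.

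The strongest 4 members show how differently members stood once the flies had met an insecticide. DS10_00005310 (scaffold 5, 2623922 to 2625595) stood in lab flies at 4336 FPKM untreated, 2885 after spinosad, 2589 after malathion and 3934 after zeta-cypermethrin. In field flies it stood at 479 FPKM untreated, 1280 after spinosad, 457 after malathion and 1012 after zeta-cypermethrin. All 4 field groups were below all 4 lab groups for this gene. DS10_00011751 (scaffold 447, 119448 to 120245) also had every field group below every lab group. It stood at 3361 to 4510 FPKM over the lab groups and at 948 to 2421 FPKM over the field groups. DS10_00003763 (scaffold 3, 1322854 to 1324190) likewise had 1407 to 1817 FPKM in lab groups and 443 to 968 FPKM in field groups. DS10_00009435 (scaffold 49, 113948 to 115847) went the other way in survivors. It stood at 2258 FPKM in untreated lab and 312 FPKM in untreated field flies, but in field survivors at 6471 FPKM after spinosad, 4425 after malathion and 7309 after zeta-cypermethrin. Its lab survivors stood at 1490, 3461 and 4475 FPKM in that order, so the field survivors were above the lab survivors of the same insecticide each time.

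The 4 largest ratios belonged to genes above the members' median in untreated lab flies, at 81.2 to 301 FPKM. DS10_00010522 (scaffold 110, 16665 to 18176) stood at 301 FPKM in untreated lab and 3.86 FPKM in untreated field flies, a ratio of 77.9. Its field survivors stood at 1557 FPKM after spinosad, 366 after malathion and 751 after zeta-cypermethrin, all above untreated lab flies. DS10_00006764 (scaffold 8, 2475626 to 2490081), on a locus shared with another model, had a ratio of 38.2 and stood at 99.96, 33.6 and 156 FPKM in the field survivors of the same insecticides. Its field changes were not called in the authors' deposited tables (q = 0.357, 0.216 and 0.0853 in that order). DS10_00012720 (scaffold 545, 274 to 38755) had a ratio of 24.7 and stood at 463, 168 and 298 FPKM. The remaining gene, DS10_00006637 (scaffold 8, 1487452 to 1488915), had a ratio of 34.4 and stayed low in field survivors, at 45.9, 19.5 and 12.7 FPKM against 139 FPKM in untreated lab flies.

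At the median over all members, field survivors stood between both untreated groups. Above their untreated lab level were 70 members in field spinosad, 36 in field malathion and 68 in field zeta-cypermethrin survivors. At or below their untreated field level were 4, 28 and 10 members in the same order. The median level relative to untreated lab flies, on the log2 scale with a pseudocount of 0.01 FPKM, was −0.31 in field spinosad survivors, −1.01 in field malathion survivors and −0.43 in field zeta-cypermethrin survivors. These medians are 0.807, 0.498 and 0.740 times the lab level, against 0.201 times in untreated field flies. Comparison genes had medians of −0.01, 0.16 and 0.04 in the same survivors, on the same log2 scale. With each column's shift taken out, the member medians were −0.31, −1.18 and −0.48. In lab survivors the member medians were −0.27 after spinosad, −0.35 after malathion and 0.05 after zeta-cypermethrin, beside 0.01, 0.04 and −0.05 for comparison genes. The members were picked as high in untreated lab flies, so a lower level elsewhere is what the choice itself favours, and no test was made of these medians.

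**Figure D2:**
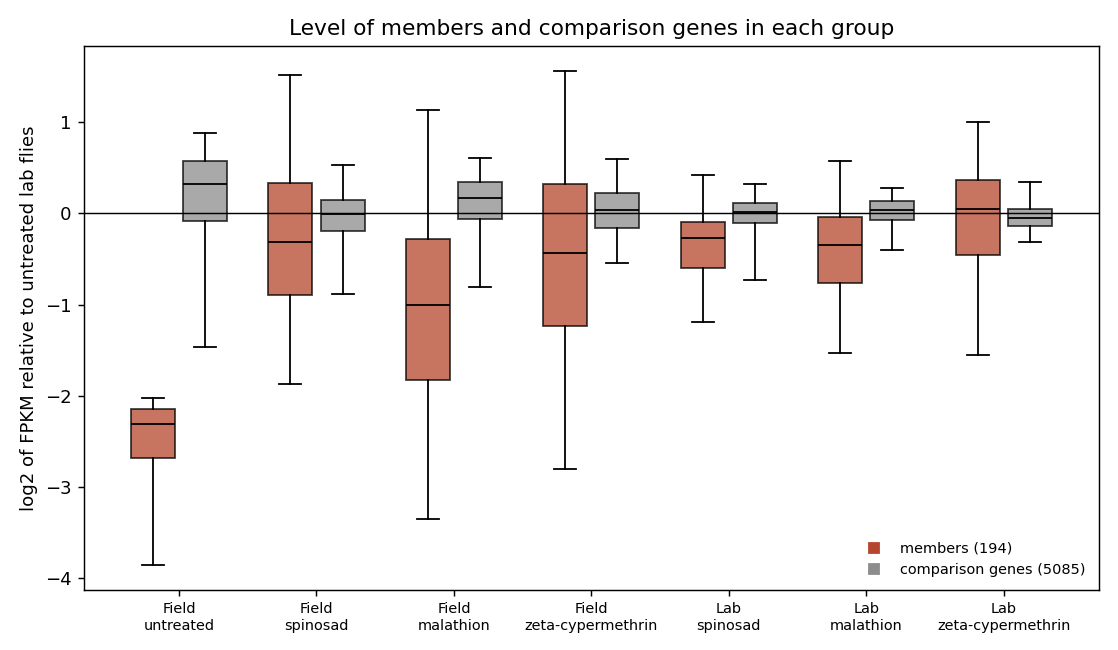
Level relative to untreated lab flies (vertical, log2 of FPKM with a pseudocount of 0.01) for 194 members and 5085 comparison genes in the other 7 groups. Boxes span the quartiles with a line at the median, and whiskers reach the 5th and 95th percentiles; member medians in the field are −0.31 after spinosad, −1.01 after malathion and −0.43 after zeta-cypermethrin.

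Counting genes gave the same order. Of the 194 members, 154 were at 0.5 times their untreated lab level or more in field spinosad survivors, 137 in field zeta-cypermethrin survivors and 96 in field malathion survivors. The comparison genes were at that level in 95.8%, 98.6% and 96.2% of cases in these groups. At or below their untreated field level were 4 members after spinosad, 10 after zeta-cypermethrin and 28 after malathion. The rule takes low untreated field values and so disfavours such cases. Untreated field flies were the lowest of the 8 groups for 164 members, which the rule favours, and for 833 of 5085 comparison genes. Field malathion survivors were the lowest for 23 members. The highest of the 8 groups was untreated lab for 63 members, which the rule also favours. It was lab zeta-cypermethrin for 50, field spinosad for 36, field zeta-cypermethrin for 25, lab spinosad for 20 and a malathion group for 0.

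The members fell into sets by how many of the 3 field survivor groups were at 0.5 times the untreated lab level or more. All 3 groups were at that level for 91 members, 2 for 39, 1 for 36 and 0 for 28. Malathion was the group that fell short in most of the mixed cases: 34 members were at that level after spinosad and zeta-cypermethrin but not after malathion. Another 29 were there after spinosad alone, 7 after zeta-cypermethrin alone, and 5 after malathion and zeta-cypermethrin but not spinosad. Of the 91 members, 85 were also at that level in all 3 lab survivor groups. Of the 28, only 14 were, so the other 14 were low in at least 1 lab survivor group as well.

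**Figure D3:**
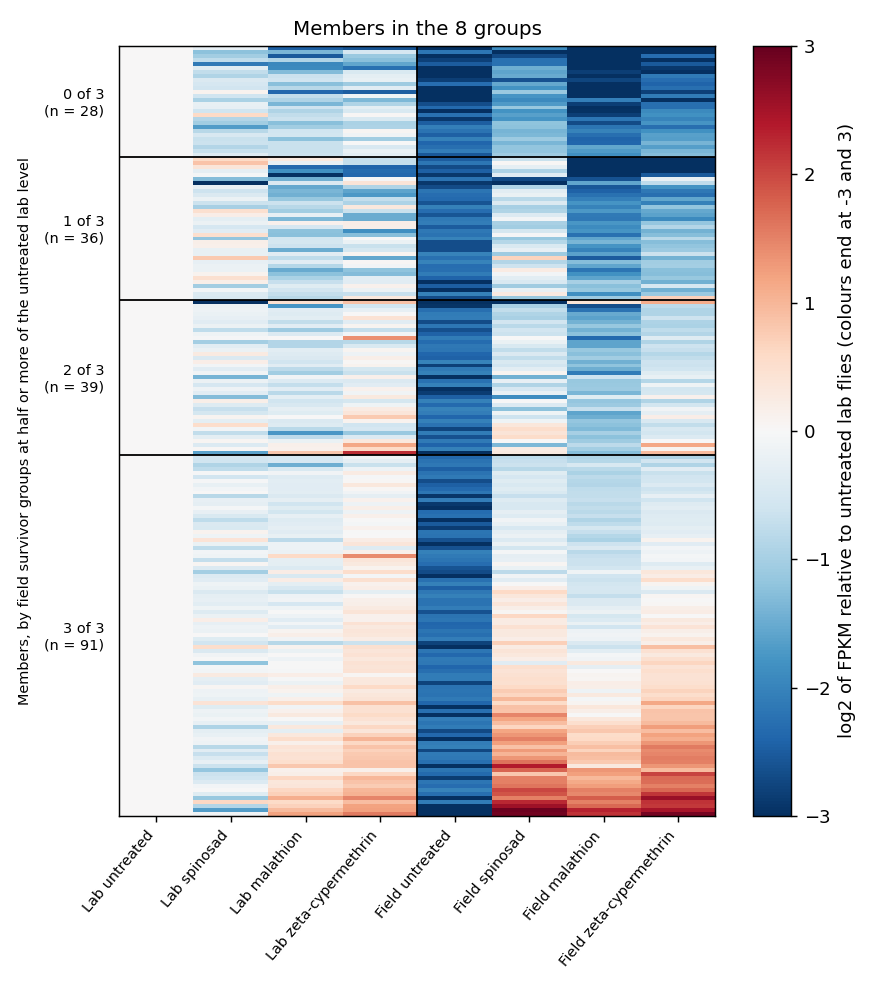
Each row is 1 of 194 members and each column 1 of the 8 groups; colour gives log2 of FPKM relative to untreated lab flies, so the first column is 0. Rows are grouped by the number of field survivor groups at 0.5 times the untreated lab level or more (28, 36, 39 and 91 members), and the column of untreated field flies is low throughout by the rule.

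Survivor groups were then set against each other, since none of their values entered the rule. Field malathion survivors were below lab malathion survivors in 157 of 194 members, with a median log2 difference of −0.56. Field zeta-cypermethrin survivors were below their lab counterparts in 132 members, with a median of −0.32. For spinosad the count was 98, with a median of −0.01. Comparison genes had medians of 0.12, 0.07 and −0.02 for malathion, zeta-cypermethrin and spinosad, close to the shifts between those columns of 0.12, 0.08 and −0.01. Field and lab tables were normalised separately and hold no replicate values, so these differences could not be tested.

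Spread was wide in both directions. Under spinosad 34 members were at least 2-fold higher and 17 at least 2-fold lower in field than in lab survivors, against 1.65% and 0.964% of comparison genes. Under malathion the numbers were 5 higher and 53 lower, against 0.610% and 2.14% of comparison genes. Under zeta-cypermethrin they were 6 and 40, against 0.787% and 0.964%. Over the 6 survivor groups the highest level of a member was 2.91 times its lowest at the median, and over 4 times in 67 members (34.5%). Comparison genes had a median of 1.37 and exceeded 4 times in 3.62% of cases. Members were chosen for a difference between the untreated groups and comparison genes for missing it, which may favour a wider spread in members. The spread also sets spinosad columns beside the others. Between these, untreated levels differed by at least 1.5-fold in 16 members (8.25%) and 6.12% of comparison genes.

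In 12 members the field survivors were at least 2-fold below the lab survivors of the same insecticide for all 3 insecticides, as in 16 of the 5085 comparison genes. DS10_00005310 was one of them. DS10_00002990 (scaffold 2, 9055548 to 9056150) stood at 556 FPKM in untreated lab flies and 236, 215 and 393 FPKM in lab survivors of spinosad, malathion and zeta-cypermethrin. Its field groups stood at 125 FPKM untreated and 39.9, 64.4 and 66.5 FPKM in survivors. It was the only member called lower in field spinosad survivors in the authors' deposited table, 3.16-fold (log2 fold change −1.66, q = 4.5e-04). DS10_00004218 (scaffold 3, 7346267 to 7346612), a short locus, kept 42.3 to 64.3 FPKM over the lab groups and 9.04 to 13.2 FPKM over the field groups. DS10_00007068 (scaffold 9, 400903 to 418959) stood at 151 to 394 FPKM in lab and 55.9 to 121 FPKM in field groups. For these 4 genes no field group reached the lowest lab group. They were picked after their values were seen.

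The opposite case was rarer: 2 members were at least 2-fold higher in field than in lab survivors under all 3 insecticides. DS10_00004168 (scaffold 3, 6530235 to 6542269), on a locus shared with another model, stood in field flies at 2.38 FPKM untreated and at 275, 177 and 198 FPKM after spinosad, malathion and zeta-cypermethrin. Its lab values were 35.6, 11.1, 68.95 and 83.2 FPKM in the same order. DS10_00004344 (scaffold 3, 8555151 to 8556766) stood in field flies at 18.2 FPKM untreated and 160, 214 and 369 FPKM in survivors, with 58.7 to 140 FPKM over the lab groups. In comparison genes 14 met the same limit.

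All 3 field survivor groups exceeded untreated lab flies in 34 members (17.5%) and in 36.0% of comparison genes. They did so by at least 2-fold in 9 members (4.64%) and in 0.472% of comparison genes. The members were picked as high in untreated lab flies, which favours a smaller share above that level. Nothing is therefore read from the contrast of 17.5% and 36.0%. DS10_00010769 (scaffold 184, 24338 to 25825) had the highest mean relative level over the survivor groups. It stood at 762 FPKM in untreated lab, 76.4 in untreated field, and in field survivors at 5667 FPKM after spinosad, 3409 after malathion and 5582 after zeta-cypermethrin. Its lab survivors stood at 707, 1755 and 2259 FPKM. DS10_00009930 (scaffold 78, 284236 to 285871) stood at 1605 FPKM in untreated lab, 336 in untreated field, and 5961, 4384 and 7046 FPKM in field survivors. DS10_00002615 (scaffold 2, 5728891 to 5732209) stood at 328, 32.3, 1921, 1079 and 1421 FPKM in the same 5 groups. In each of these 3 genes lab survivors of malathion and zeta-cypermethrin were above untreated lab flies, and lab spinosad survivors were below them. The lower spinosad level was called for DS10_00002615 (log2 fold change −0.92, q = 0.0025) in the authors' deposited table. It was small and not called there for DS10_00010769 (−0.07) and DS10_00009930 (−0.17, q = 0.999 for both).

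Another set separated spinosad from both other insecticides. In 13 members the spinosad survivors were at least 2-fold above the malathion and the zeta-cypermethrin survivors, in both populations. This pattern was picked after the values were seen; 6 of 5085 comparison genes (0.118%) had it. The 13 are not independent, since 3 of them share 1 locus and DS10_00001724 lies beside DS10_00001725. DS10_00000033 (scaffold 1, 254096 to 298173), the longest member locus and one shared with another gene model, stood in lab flies at 192 FPKM untreated, 183 after spinosad, 24.4 after malathion and 37.2 after zeta-cypermethrin. In field flies it stood at 25.8 FPKM untreated, 151 after spinosad, 16.3 after malathion and 33.4 after zeta-cypermethrin. Its field changes were not called for any insecticide in the authors' deposited tables (q = 0.131 with spinosad, 0.610 with malathion, 0.722 with zeta-cypermethrin). DS10_00004965 (scaffold 4, 4231046 to 4231714) stood at 62.7, 80.8, 12.5 and 11.9 FPKM in lab flies and at 9.80, 51.8, 7.71 and 2.31 FPKM in field flies, in that order. DS10_00001052 (scaffold 1, 11754237 to 11755514) stood at 78.6, 65.2, 22.2 and 15.8 FPKM in lab flies and at 14.3, 41.4, 6.57 and 7.06 FPKM in field flies.

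The spinosad tables were not on the same footing as the others. Untreated flies of a population stand in each of its tables. Between the malathion and zeta-cypermethrin tables, members' untreated levels differed by nearly the same factor (0.965 to 0.977 in the field, 0.973 to 0.979 in the lab). Between the spinosad and malathion tables they differed by at least 1.5-fold in 16 members (8.25%), against 6.12% of comparison genes. DS10_00010496 (scaffold 286, 193899 to 196514) is the extreme, with untreated lab flies at 85.9 FPKM in the malathion table and 0.0974 FPKM in the spinosad table. Its spinosad survivors, at 0.106 FPKM in the lab and 0.377 FPKM in the field, follow the spinosad table, while malathion and zeta-cypermethrin survivors of both populations stood at 113 to 186 FPKM. Without the 16 members, 12 of 178 still had spinosad 2-fold above both other insecticides in both populations, and 4 of 4774 comparison genes did. The reverse pattern was present in 3 of 194 members (1.55%) and in 2.48% of comparison genes. Without the genes that differed between tables it was present in 0 of 178 members and 0 of 4774 comparison genes.

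**Figure D4:**
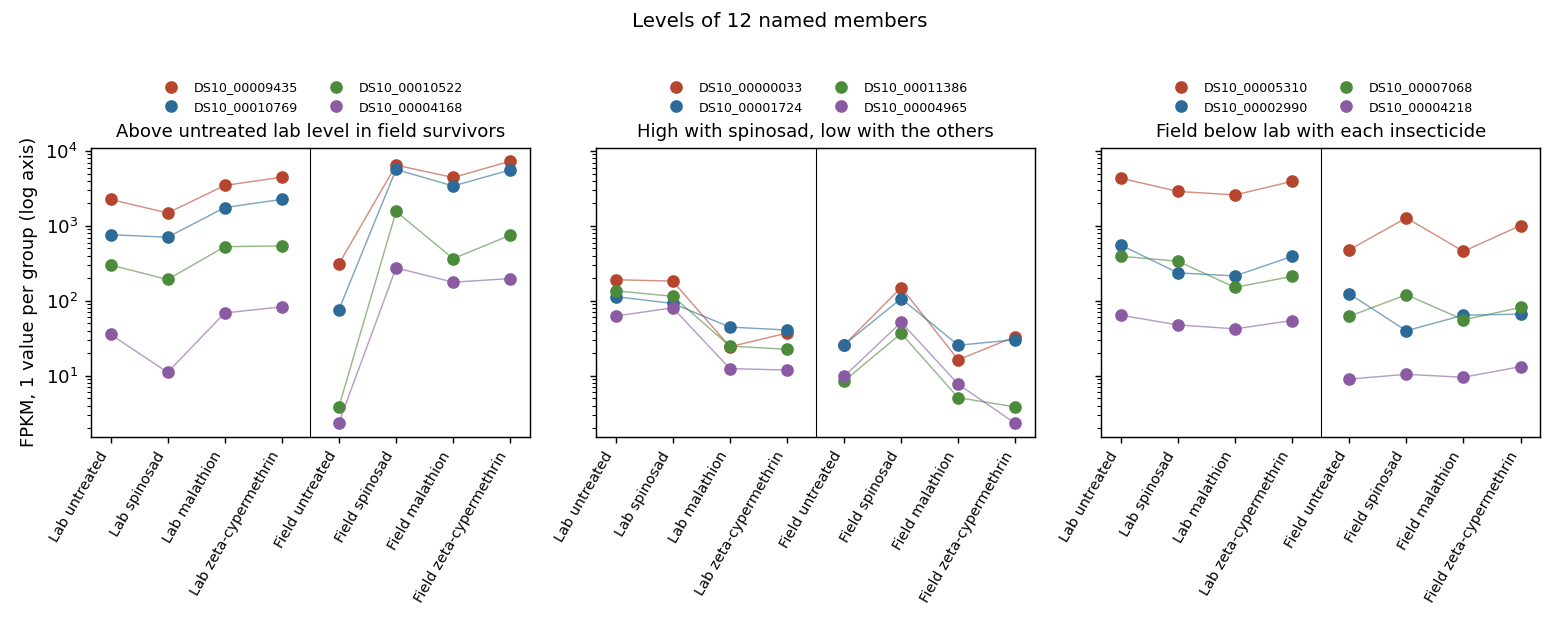
FPKM (vertical, log axis, 1 deposited value per group) of 12 named members in the 8 groups; thin lines only join the points of a population. DS10_00009435 and the other 3 genes of the left panel are above untreated lab flies in all field survivors, the middle panel's genes are high after spinosad and low after malathion and zeta-cypermethrin, and in the right panel every field value is below every lab value of the same gene.

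The authors' own tests compare survivors with untreated flies of the same population, called here at a deposited q of 0.05 or less. Each shares an untreated group with the rule: low field values favour calls of higher in the field tables, and high lab values favour calls of lower in the lab tables. Counts of members are therefore set beside the share of all tested genes and nothing is read from the excess. In field spinosad survivors 168 of 192 tested members were called higher, where 25.9% of all tested genes were, and 1 lower, where 10.3% were. In field malathion survivors 118 of 194 were called higher, where 17.8% of all tested genes were, and 5 lower, where 4.22% were. In field zeta-cypermethrin survivors 156 of 194 were called higher, where 27.8% of all were, and 3 lower, where 20.4% were. Higher calls in all 3 field tables, which share their untreated flies, fell on 113 of 192 members tested in all of them, where 14.8% of all such genes had them.

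Rises and falls are ranked here among members called at that q only, and larger uncalled changes exist in the authors' deposited tables. DS10_00010522 had the largest called rise under each insecticide in the authors' deposited tables, with log2 fold changes of 8.65, 6.57 and 7.64 (q = 4.5e-04, 5.1e-04 and 2.7e-04). DS10_00010769 followed among called members under spinosad (6.26, q = 4.5e-04), while the larger rise of DS10_00004168 (6.91, q = 0.067) was not called, in the authors' deposited table. DS10_00004168 followed under malathion (6.22, q = 9.6e-04) and zeta-cypermethrin (6.43, q = 2.7e-04) in the authors' deposited tables. The largest called falls were those of DS10_00001052 under malathion (−1.12, q = 0.0227) and of DS10_00004965 under zeta-cypermethrin (−2.05, q = 0.0279) in the authors' deposited tables. DS10_00002072 (scaffold 2, 524385 to 532674) also fell under malathion in the authors' deposited table (−1.05, q = 5.1e-04), and DS10_00001052 also fell under zeta-cypermethrin (−0.98, q = 0.0179).

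In the lab tables most members were not called. In lab spinosad survivors 4 of 193 tested members were called higher and 27 lower, where 2.02% and 1.60% of all tested genes were. In lab malathion survivors 8 of 194 were called higher and 62 lower, where 2.98% and 2.65% of all were. In lab zeta-cypermethrin survivors 16 of 194 were called higher and 22 lower, where 1.79% and 1.14% of all were. Of 193 members tested throughout, 7 were called lower in each lab table, where 0.277% of all such genes were.

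The lab changes named next are likewise the largest among called members. DS10_00010769 and DS10_00010481 (scaffold 279, 124869 to 140627) rose under malathion, with log2 fold changes of 1.20 and 1.10 (q = 0.0019 for both), in the authors' deposited table. They also rose under zeta-cypermethrin, 3.04-fold (q = 0.0058) and 2.82-fold (q = 0.0032), in the authors' deposited table. DS10_00000033 fell under malathion (−2.97, q = 0.0207), as did DS10_00006474 (scaffold 11, 3675021 to 3676793; −2.51, q = 0.0019), in the authors' deposited table. DS10_00011385 (−2.43) and DS10_00004965 (−2.36) fell under zeta-cypermethrin (q = 0.0032 for both) in the authors' deposited table. Under spinosad DS10_00004542 (0.92, q = 0.0046) and DS10_00005751 (scaffold 6, 3182942 to 3190602; 0.74, q = 0.0082) rose in the authors' deposited table. DS10_00013028 (scaffold 824, 1377 to 1667; −2.14, q = 0.0182) and DS10_00004545 (scaffold 3, 10562680 to 10565590; −1.72, q = 0.0025) fell there.

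Members lay on 63 of the 902 scaffolds, and the genes meeting both minimums on 478. Scaffold 1 held 39 members, scaffold 2 held 25, scaffold 3 held 18 and scaffold 6 held 12. These are 20.1%, 12.9%, 9.28% and 6.19% of the members, against 16.3%, 13.9%, 8.62% and 3.83% of all genes that met both minimums. Scaffold 9 held 5 members among 50 such genes, and scaffold 4 held 4 among 230. Scaffold 12, with 54 such genes, held 0. Over all scaffolds 3.67% of such genes were members, and the counts per scaffold were not tested. Member loci ran from 138 to 44078 bp with a median of 3308 bp, and comparison genes had a median of 2728 bp. A locus shared with another gene model was recorded for 20 members (10.3%) and 11.3% of comparison genes, and reads there may have been split between models.

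**Figure D5:**
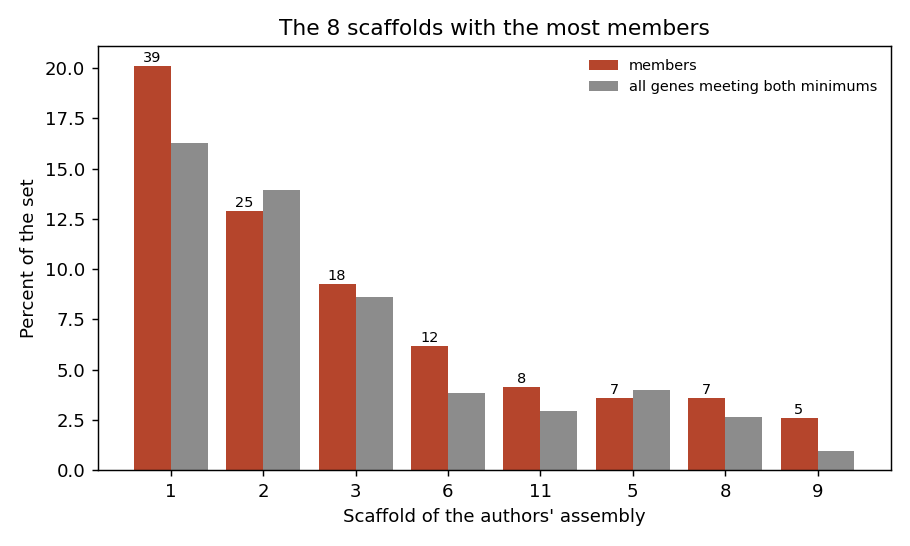
Percent of the 194 members and of all 5279 genes meeting both minimums (vertical) on each of the 8 scaffolds with the most members; numbers over the bars count members. Scaffold 1 holds 39 members (20.1%, against 16.3%) and scaffold 9 holds 5.

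Some members were next to each other. A member was the next gene model of another in 17 cases, which join 31 members into 11 pairs and 3 runs of 3. Of 149 places beside a member that were held by a gene meeting both minimums, 34 (22.8%) held a member. This counts each of the 17 cases from both sides. Of 5367 such places beside comparison genes, 2.14% held a member. In 2 of the 17 cases the models carry the same locus, and in the other 15 the gap had a median of 2898 bp. Comparison genes beside a member had a median log2 ratio of untreated lab to untreated field flies of −0.28, and the other comparison genes −0.33. The rule had already taken genes with a larger lab excess out of the comparison genes. These medians therefore cannot show whether the surroundings of members were shifted. The distance between relative survivor levels of neighbouring members had a median of 0.44 on the log2 scale over the 15 pairs, against 1.05 over all 18721 pairs of members. It was below 1.05 in 12 of the 15 pairs. DS10_00009930 and its neighbour DS10_00009929, at 5961 and 30.7 FPKM in field spinosad survivors, stood at relative levels of 1.89 and −0.42.

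The 3 runs were each described. DS10_00001724, DS10_00001725 and DS10_00001726 lie on scaffold 1 between 19565702 and 19573343. DS10_00001724 stood at 114, 92.2, 44.7 and 40.8 FPKM in untreated, spinosad, malathion and zeta-cypermethrin lab flies, and at 25.95, 107, 25.6 and 30.3 FPKM in field flies. DS10_00001725 stood at 82.6, 61.3, 30.3 and 24.9 FPKM in lab and 16.8, 72.1, 17.6 and 17.2 FPKM in field flies, in that order. The third gene, DS10_00001726, had 83.9, 54.3, 32.5 and 28.2 FPKM in lab and 18.3, 67.5, 15.6 and 19.05 FPKM in field flies. All 3 were high in untreated lab flies and in spinosad survivors of both populations, and lower in the other groups.

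The second run held short loci on scaffold 3 between 10547136 and 10557108. DS10_00004542 and DS10_00004543 are 423 bp each, and whether reads were shared between them was not tested. DS10_00004542 stood at 55.4, 99.98, 47.2 and 33.9 FPKM in lab and 12.3, 56.8, 2.08 and 3.91 FPKM in field flies, in the same order of groups. DS10_00004543 stood at 27.6, 40.8, 33.6 and 16.8 FPKM in lab and 4.87, 17.4, 0.708 and 1.66 FPKM in field flies. Both had lower values in field malathion and zeta-cypermethrin survivors than in untreated field flies, but neither difference was called for either gene in the authors' deposited tables (q from 0.0696 to 0.219). Their neighbour DS10_00004541 differed from them, with 226 to 392 FPKM over the lab groups and 67.7 FPKM in untreated field flies, but 243 to 416 FPKM over the field survivors.

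The third run shares a locus on scaffold 190 (54796 to 71296), so its members cannot be taken as separate positions. DS10_00011386 stood at 136, 115, 24.9 and 22.6 FPKM in lab and 8.52, 36.8, 5.10 and 3.85 FPKM in field flies, in the same order. It had the lowest mean relative level of all members over the survivor groups, followed by DS10_00013028. None of the changes of DS10_00011386 was called in the authors' 6 deposited tables (q from 0.203 to 0.999). DS10_00011384 stood at 38.5, 29.7, 10.2 and 8.15 FPKM in lab and 3.65, 13.96, 3.31 and 5.19 FPKM in field flies. DS10_00011385 stood at 28.4, 30.6, 5.57 and 5.14 FPKM in lab and 3.19, 13.2, 3.05 and 4.06 FPKM in field flies. In all 3 models untreated lab flies and lab spinosad survivors were highest, and field spinosad survivors were highest among field flies.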

How the data were processed

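Per the submitters' processing notes, reads were handled with FastQC, TopHat2 2.0.13, Cufflinks 2.2.1 and Cuffdiff; the build behind the scaffolds is not given in the sources used here, nor is the annotation. The authors deposited 6 tables, 1 per insecticide and population, with 1 FPKM value per group over pooled replicates, per the file headers. The authors' log2 fold change sets survivors over untreated flies. It stands beside a test statistic score, which was not used, and a p-value (lowest 5e-05) and q-value from the authors' test. In the malathion and zeta-cypermethrin tables the group columns carry generic names and were read as untreated first, from the table titles.

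Untreated levels were taken from the malathion tables. Levels were compared as log2 of FPKM plus a pseudocount of 0.01; column shifts are medians over genes whose levels reached 10 FPKM in both columns. Field and lab tables were normalised separately. Locus starts, counted from 0 in the tables, are printed counted from 1. Named genes are those strongest in untreated lab flies, with the largest ratios, at the fold limit, in the longest runs, extreme over survivor groups, or with the largest called changes; others are marked as chosen later. Members and lists were chosen with earlier results of these data known. The code of the selection was checked on simulated data with planted genes, which does not show how stable the members are. Python 3.11.15, pandas 2.3.3 and numpy 2.4.6 were used.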

Additional observations from a re-analysis of the deposited data

How the results depend on the processing

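Of 107 alternative values for 26 results, 89 stayed close to the reported one and 18 moved, counts by over 1.5 times. A median was taken as moved when it left an interval set by the spread over members, which are not replicates. Recentring the authors' fold changes could alter a call only by reversing its sign, and it altered no count of calls. The number that stayed close is therefore no measure of reliability. The number of member genes was 388 with a fold limit of 3, 63 with a limit of 6, 323 with a lab minimum of 10 FPKM, 97 with a minimum of 50 FPKM and 349 after rescaling. Control columns of the spinosad tables gave 192 genes, 178 of them members. With the untreated lab level of the same table the median for lab spinosad survivors was −0.22, and −0.23 with members by both sets of control columns as well, an alternative added after seeing the data. In field malathion survivors 148 members were at 0.25 times the untreated lab level or more. At a deposited q of 0.01 or less, 3 members were called lower in field malathion survivors, 1 lower in field zeta-cypermethrin survivors and 7 higher in lab zeta-cypermethrin survivors. When the log2 fold change also had to reach 1 in size, the calls were 3 lower in field malathion, 1 lower in field zeta-cypermethrin, 0 higher and 8 lower in lab spinosad, 2 higher and 29 lower in lab malathion, and 8 higher in lab zeta-cypermethrin survivors. No paired analysis was possible because the tables hold 1 value per group, and for the same reason no replicate could be left out. Depth is unknown, so no counting error could be given.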
